A study of Mus musculus with 8 samples.

Results

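The nuclear genes for the 5 complexes of oxidative phosphorylation were followed through hippocampal RNA-seq of Pyk2 mutant mice. Members were all genes whose symbol begins with Nduf (complex I), Uqcr (III), Cox4 to Cox8 (IV) or Atp5 (V), or is Sdha to Sdhd (II), with symbols ending in -ps left out. The rule found 97 genes of the 55423 symbols in the tables, with 49 in complex I, 4 in complex II, 8 in complex III, 19 in complex IV and 17 in complex V. Of the 49 complex I genes, 7 encode the catalytic core, 30 encode supernumerary subunits, 8 encode assembly factors (Ndufaf), 1 is the isoform gene Ndufa4l2 and 3 are copies of other members.

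The libraries were made from C57BL/6 hippocampus, 2 in each of 4 groups. These were a CRISPR Pyk2 knockout (KO), a CRISPR Pyk2 mutant with the substitution Y402F (Y402F), wild-type controls of the knockout line (KO controls) and wild-type controls of the Y402F line (Y402F controls). Pyk2 is a calcium-responsive tyrosine kinase encoded by Ptk2b, and Y402F removes its autophosphorylation site. Age, the number of founders and whether a library is 1 animal are not given in the sources used here, and a p-value therefore reflects how far the libraries themselves scatter, part of which may be technical.

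Complex I passes electrons from NADH to ubiquinone, complex II does so from succinate, complex III passes them on to cytochrome c and complex IV to oxygen. Complexes I, III and IV pump protons across the inner mitochondrial membrane, and complex V, the ATP synthase, lets them flow back to make ATP. The mitochondrial genome encodes the central pumping subunits, and all other subunits, including the whole of complex II, come from the nucleus. Neurons of the hippocampus rely on this pathway for the ATP that restores ion gradients after firing.

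The 2 kinds of library came from different tables. The mutant tables give expected counts, that is, reads assigned to a gene by estimate, with FPKM (fragments per kilobase of transcript, scaled to library depth) for genes above 0, and the control tables give FPKM alone in the layout of Cufflinks. Expected counts summed to 5756180 and 5965760 in KO and to 5825060 and 6017220 in Y402F; the depth of the control libraries is unknown. FPKM were divided by a median-of-ratios factor per library and are called scaled FPKM below. Ptk2b was at 55.8 and 68.4 scaled FPKM in KO, 352 and 394 in Y402F, 308 and 307 in KO controls and 322 and 316 in Y402F controls, so KO was low in both libraries and no other group was. The libraries also differed in sex pattern: Ddx3y, a Y-linked gene, was at 0.0417 and 5.05 in KO, 0.0422 and 4.72 in Y402F, 0.0691 and 0.0692 in KO controls and 5.75 and 4.77 in Y402F controls. Xist, a gene of the female pattern, was at 25.4 and 0.169 in KO and 39.98 and 0.105 in Y402F. It was at 3.94 and 3.23 in KO controls and 0.052 and 0.294 in Y402F controls. KO control replicate 2 also held some Y-linked Eif2s3y, at 0.684, against 9.06 and 7.83 in Y402F controls. The hippocampal neuron markers Camk2a, Slc17a7, Prox1 and Neurod6 were present in all 8 libraries, and the summed level of 8 choroid plexus markers was 40.02 and 53.7 in KO, 39.5 and 751 in Y402F, 49.4 and 48.2 in KO controls and 1141 and 1168 in Y402F controls.

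In these hippocampal libraries nearly all structural subunits were abundant. Over the 75 structural subunits in the 8-library table, the median level was 120 and 131 scaled FPKM in KO, 114 and 126 in Y402F, 192 and 189 in KO controls and 137 and 144 in Y402F controls. The highest members by mean over the 8 libraries were Ndufa4 in complex I with 462 scaled FPKM, Sdha in complex II with 130, Uqcrh in complex III with 346, Cox8a in complex IV with 781 and Atp5b in complex V with 908. The lowest structural members were Ndufs4 with 31.4, Sdhd with 49.6, Uqcrfs1 with 62.5, Cox5a with 93.7 and Atp5e with 99.3. Atp5b encodes the catalytic beta subunit of the F1 head, Sdha the flavoprotein that oxidises succinate and Ndufs4 an accessory subunit next to the NADH-oxidising arm. Ndufa4 is counted with complex I by its symbol, although its protein is known as a subunit of complex IV.

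The 8 Ndufaf genes, which encode factors that build complex I and leave it, were at lower levels than the subunits as a median, though Ndufaf3 lay above the subunit Ndufs4. Their median was 10.4 and 11.1 scaled FPKM in KO, 9.94 and 11.9 in Y402F, 19.1 and 19.7 in KO controls and 12.4 and 17.3 in Y402F controls. They ranged from 5.95 for Ndufaf6 to 35.8 for Ndufaf3 as means over the 8 libraries. Ndufaf6 stood at 17.8 in Y402F control replicate 2, against 3.77 in replicate 1 of that group and 1.88 to 7.02 in the other libraries.

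The paired isoform genes of complex IV were used almost entirely in their general form. Shares of FPKM within a library do not depend on scaling. Cox6a2, the form of heart and skeletal muscle, held 0.784 and 1.20% of the Cox6a pair in KO, 1.02 and 0.756% in Y402F, 1.19 and 1.30% in KO controls and 1.57 and 1.35% in Y402F controls. Cox7a1, also a muscle form, held 0 and 1.18% of Cox7a1 plus Cox7a2 in KO, 2.21 and 1.38% in Y402F, 0.896 and 1.22% in KO controls and 1.72 and 1.20% in Y402F controls. Cox8b held at most 0.571% of its pair, Cox6b2, the testis form, at most 0.978%, and Ndufa4l2 at most 1.78% of Ndufa4 plus Ndufa4l2 in any library. Cox4i2, the form known from lung, held 0.453 and 0.169% of the Cox4i pair in KO and 0.323 and 0.673% in Y402F. Cox4i1 itself was at 397 and 450 scaled FPKM in KO and 319 and 441 in Y402F, and its level in the controls was not analysed here.

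Some members were low or listed in 1 kind of table only. Cox7b2, a testis form, ranged from 0 to 1.56 scaled FPKM, and the sperm isoform Cox8c was listed at 0 in all 4 control libraries. Ndufa11b, Ndufb4c, Ndufs6b and Cox6c2, which GENCODE annotates as processed pseudogenes, were listed in the controls only: Cox6c2 at 564 and 508 scaled FPKM in KO controls and 360 and 369 in Y402F controls, and Ndufb4c at 151 and 144 in KO controls and 92.4 and 94.99 in Y402F controls. Ndufs6b was at 60.2 and 57.8 in KO controls and 39.7 and 31.5 in Y402F controls, and Ndufa11b at 29.7 and 36.0 in KO controls and 28.3 and 23.5 in Y402F controls. In all, 91 members were in both kinds of table, 90 passed a mean of 1 FPKM over the 8 libraries and were tested there, and 87 of the 92 in the mutant tables passed the count filter.

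**Figure D1:**
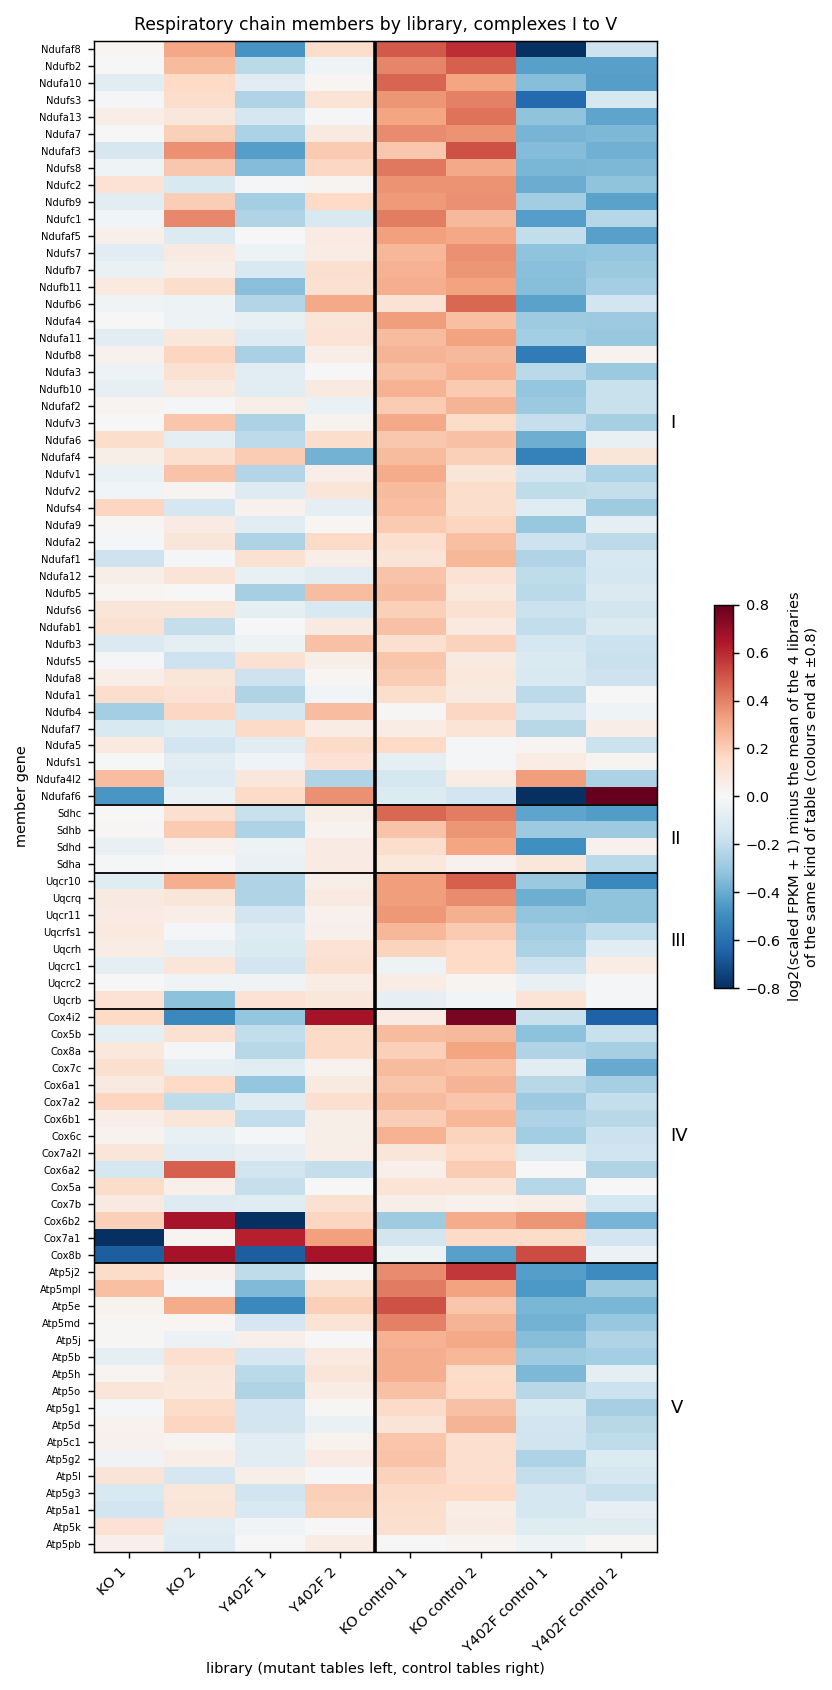
Each row is 1 of 89 members in the 8-library test, grouped by complex, and each column a library; colour is log2(scaled FPKM + 1) minus the member's mean over the 4 libraries of the same kind of table, so colours cannot be compared across the thick line. The KO control columns are red for most members and the Y402F control columns blue, while among the mutants Y402F replicate 1 is the lowest library for most members.

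KO and Y402F, whose tables were made alike, differed little at the members. In edgeR's quasi-likelihood test on the rounded expected counts, none of the 87 members passed an adjusted p (Benjamini-Hochberg) of 0.05, against 1 gene of 13539 in all, or 0.00739%. At an unadjusted p under 0.05 the test gave 0 members of 87, against 1.96% of all genes; DESeq2 called 0 members, and limma, which called 0.0386% of all genes, called 0 members and gave 4 of 90 at that unadjusted p, against 2.34% of all genes. The median log2 difference was 0.06 over the members and 0.00 (-0.0048) over all genes, and 56 of 87 members were above 0. By complex the medians were 0.08 for complex I, 0.06 for II, 0.04 for III, 0.06 for IV and 0.05 for V.

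None of the members with the smallest p in each complex was called. Ndufc1, a supernumerary subunit of the membrane arm, was at 46.3 and 61.9 scaled FPKM in KO, against 39.7 and 43.3 in Y402F. Both KO libraries lay above both Y402F libraries. Its log2 difference was 0.38 (SE 0.22), with an unadjusted p of 0.0927 and an edgeR adjusted p of 0.999. Sdhb, the iron-sulphur subunit of complex II, was at 109 and 125 in KO, against 90.7 and 110 in Y402F, with a log2 difference of 0.22 (SE 0.15). Uqcrb, a small subunit of complex III, went the other way: it was at 290 and 213 in KO, against 289 and 285 in Y402F, with a log2 difference of -0.19 (SE 0.16). For Cox6a1, of complex IV, the difference was 0.22 (SE 0.15), and for Atp5d, the delta subunit of the F1 stalk, 0.20 (SE 0.14), with both KO libraries of Atp5d above both Y402F libraries. The edgeR adjusted p was 0.999 for each of these.

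Among the core genes of complex I, Ndufs8, Ndufs3 and Ndufv1 had Y402F replicate 1 as the lowest of the 4 mutant libraries. Ndufs8, an iron-sulphur subunit, was at 75.6 and 90.3 scaled FPKM in KO, against 60.7 and 87.1 in Y402F. Ndufs3 was at 81.0 and 90.0 in KO, against 68.9 and 88.2 in Y402F, and Ndufv1, which holds the NADH site, at 60.5 and 73.7 in KO, against 53.1 and 65.1 in Y402F. In each of these the KO and Y402F libraries overlapped. For Ndufs1 the lowest was KO replicate 2, at 45.6, against 47.5 in Y402F replicate 1, and for Ndufs7 it was KO replicate 1, at 72.0, against 74.2. Y402F replicate 1 was the lowest of the 4 mutant libraries, or tied for it, for 57 of 90 members, or 63.3%, against 28.2% of all genes. Without it the median log2 difference of KO against Y402F was -0.04, and without Y402F replicate 2 it was 0.15. Of the 90 members, 15 were higher in both KO libraries than in both Y402F libraries and 6 were lower, against 12.8% of all genes in each direction.

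The wild-type libraries of the 2 lines, which share 1 kind of table, differed at many members. In limma on log2(scaled FPKM + 1), 42 of 90 members were higher in KO controls than in Y402F controls and 0 were lower, against 4.82% of all 12963 genes called higher and 3.16% called lower (7.98% in either direction). At an unadjusted p under 0.05 there were 67 members of 90, against 27.1% of all genes. The median log2 difference was 0.45 over the members and -0.02 over all genes, and 85 of 90 members were above 0. Both KO control libraries lay above both Y402F control libraries for 78 of the 90 members and below them for 2, against 28.1% and 30.9% of all genes. These are animals without a Pyk2 mutation, so the difference is one between control groups. Sex pattern and choroid plexus markers differ between the same 4 libraries and cannot be told apart from line in this comparison.

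Every complex had members called in this fit. With a trend over transcript length removed, as given below, no member of complex III or IV was called. In complex I, 23 of 46 members were called higher, with a median log2 difference of 0.46; in complex II 2 of 4, with 0.52; in complex III 4 of 8, with 0.40; in complex IV 6 of 15, with 0.45; and in complex V 7 of 17, with 0.38. Among complex I core genes, Ndufs3, Ndufs7, Ndufs8 and Ndufv2 were called higher, and Ndufv1 and Ndufs1 were not. Ndufs7, which carries the last iron-sulphur cluster before ubiquinone, was at 104 and 112 scaled FPKM in KO controls, against 69.1 and 69.7 in Y402F controls. Its log2 difference was 0.63 (limma SE 0.09, adjusted p = 0.0140). Ndufs1, the largest core subunit, was at 69.7 and 73.0 in KO controls, against 76.4 and 74.5 in Y402F controls, with a log2 difference of -0.08 (SE 0.10).

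The complex I genes with the largest called differences were Ndufaf8, Ndufb2 and Ndufa10. Ndufb2, a supernumerary subunit of the membrane arm, was at 99.3 and 105 scaled FPKM in KO controls, against 55.6 and 55.5 in Y402F controls, a log2 difference of 0.87 (limma SE 0.11, adjusted p = 0.0115). Ndufa10 was at 325 and 292 in KO controls, against 185 and 172 in Y402F controls. The assembly factor Ndufaf8 was at 37.9 and 40.8 in KO controls, against 13.7 and 23.8 in Y402F controls, a log2 difference of 1.08 (limma SE 0.27, adjusted p = 0.0482). In none of the 3 did the groups overlap, although the Y402F controls of Ndufaf8 were far apart.

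All 4 complex II members were above 0 and 2 were called. Sdhc, 1 of the membrane anchors that bind ubiquinone, was at 168 and 162 scaled FPKM in KO controls, against 90.6 and 89.2 in Y402F controls, so that KO controls held 184% of the Y402F control level. Its log2 difference was 0.87 (limma SE 0.10, adjusted p = 0.0111). Sdhb was at 129 and 141 in KO controls, against 89.7 and 89.6 in Y402F controls, with a log2 difference of 0.58 (limma SE 0.12, adjusted p = 0.0275). Sdha was at 131 and 126 in KO controls, against 131 and 106 in Y402F controls, and Sdhd at 56.0 and 63.1, against 35.8 and 51.7, and neither was called.

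In complex III the small subunits Uqcr10, Uqcrq and Uqcr11 and the Rieske iron-sulphur protein Uqcrfs1 were higher in KO controls. Uqcr10 was at 317 and 349 scaled FPKM in KO controls, against 204 and 175 in Y402F controls, with a log2 difference of 0.81 (limma SE 0.15, adjusted p = 0.0220). Uqcrfs1 was at 72.0 and 69.2 in KO controls, against 49.2 and 52.0 in Y402F controls, with a log2 difference of 0.47 (limma SE 0.10, adjusted p = 0.0283). The core proteins were not called: Uqcrc1 was at 156 and 179 in KO controls, against 142 and 167 in Y402F controls, and Uqcrc2 at 144 and 141, against 133 and 137. Uqcrb was at 184 and 190 in KO controls, against 208 and 190 in Y402F controls.

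The complex IV calls were Cox5b, Cox6a1, Cox6b1, Cox6c, Cox7c and Cox8a, all general subunits of the assembled oxidase. Cox5b was at 1105 and 1111 scaled FPKM in KO controls, against 739 and 820 in Y402F controls, a log2 difference of 0.51 (limma SE 0.12, adjusted p = 0.0421). Cox8a was at 985 and 1076 in KO controls, against 730 and 720 in Y402F controls, a log2 difference of 0.50 (limma SE 0.12, adjusted p = 0.0386). Cox6b1, which faces the side where cytochrome c docks, was at 1240 and 1301 in KO controls, against 912 and 929 in Y402F controls. Cox5a was at 115 and 115 in KO controls, against 90.8 and 107 in Y402F controls, and was not called. The muscle and testis isoforms, all under 13 scaled FPKM, were not called.

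In the ATP synthase all 17 members were above 0 and 7 were called. Atp5j2, subunit f of the membrane part, was at 239 and 271 scaled FPKM in KO controls, against 135 and 129 in Y402F controls. KO controls thus held 194% of the Y402F control level, with a log2 difference of 0.95 (limma SE 0.10, adjusted p = 0.0111). Atp5mpl and Atp5md, small membrane subunits, had differences of 0.74 (SE 0.16) and 0.68 (SE 0.09). Of the F1 head, Atp5b was at 1448 and 1426 in KO controls, against 971 and 983 in Y402F controls, with a log2 difference of 0.56 (limma SE 0.09, adjusted p = 0.0182). The alpha subunit Atp5a1 was at 454 and 428 in KO controls, against 373 and 393 in Y402F controls, and was not called. Atp5c1 (gamma) and Atp5d (delta) were called, with log2 differences of 0.36 and 0.38, and Atp5e (epsilon) was not, at 178 and 146 in KO controls, against 97.0 and 96.6 in Y402F controls. Of the stalk, Atp5pb (subunit b, also named Atp5f1) was at 278 and 282 in KO controls, against 269 and 279 in Y402F controls, a log2 difference of 0.03. Atp5h and Atp5o, at 0.44 and 0.39, were not called.

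**Figure D2:**
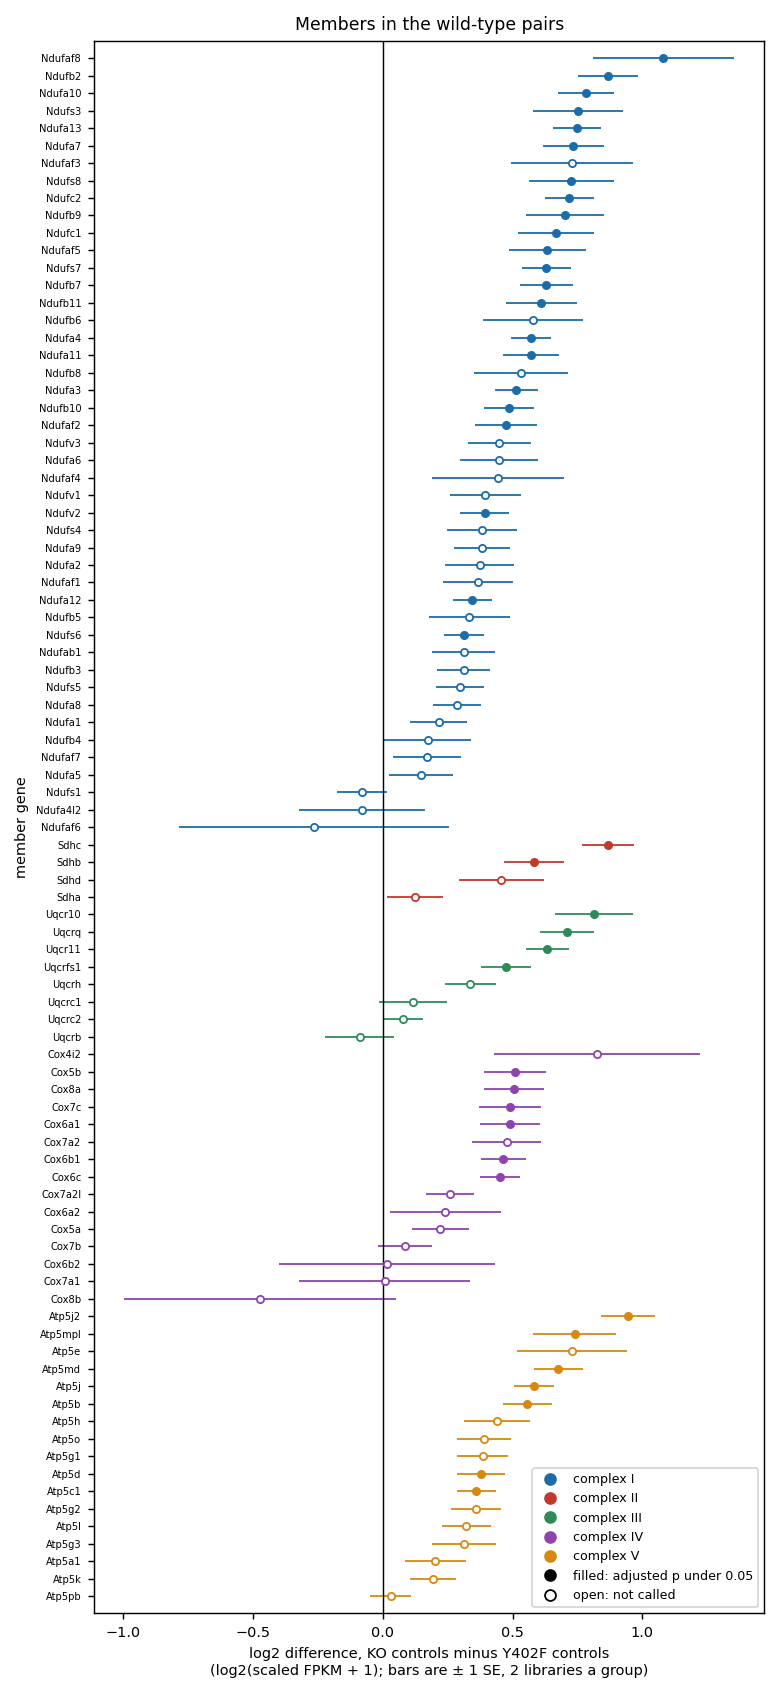
Log2 difference of KO controls minus Y402F controls for 89 members, grouped by complex, with bars of ± 1 SE from limma (2 libraries a group) and filled points for an adjusted p under 0.05. The 41 filled points all lie above 0, and the points of Ndufs1, Ndufa4l2, Ndufaf6, Uqcrb and Cox8b lie below it.

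Transcript length moved with this difference. Members are short, with a median of 686 bases in the mutant tables, against 2848 bases for the other genes tested. Among the other genes the median log2 difference between the wild-type pairs was 0.17 below 500 bases, 0.31 from 500 to 1000, 0.15 from 1000 to 2000, -0.03 from 2000 to 4000 and -0.19 above 4000. Members of the same classes had medians of 0.65, 0.44, 0.39 and 0.20, with none above 4000 bases, and 73 of the 90 were above the median of the other genes of their class. With a smooth trend over length removed from each library, 7 members were called higher and 0 lower, against 2.41% of all genes called higher and 1.74% lower, with a median of 0.11. The 7 were Atp5b, Atp5j2, Sdhc, Ndufa10, Ndufa11, Ndufa13 and Ndufaf5, with log2 differences from 0.48 (Atp5b, limma adjusted p = 0.0246) to 0.65 (Ndufaf5, limma adjusted p = 0.0479). Sdhc kept 0.65 (limma adjusted p = 0.0155) and Atp5j2 0.48 (limma adjusted p = 0.0299).

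Leaving out any 1 control library lowered the number of members that passed to a similar count, and it lowered the share of all genes called. With 1 control library left out the count was 10 without KO control replicate 1, 10 without KO control replicate 2, 10 without Y402F control replicate 1 and 11 without Y402F control replicate 2. The shares of all genes called in these fits were 2.05, 2.09, 1.94 and 1.30% in the same order. Of the 10 without Y402F control replicate 1, 1 was lower, the assembly factor Ndufaf6, whose log2 difference was -1.26 there, against 0.73 without Y402F control replicate 2 (not called). Ndufa13, Ndufb2, Ndufc2, Sdhc, Uqcr11 and Atp5j2 were called higher in all 4 of these fits, which makes 6 members.

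**Figure D3:**
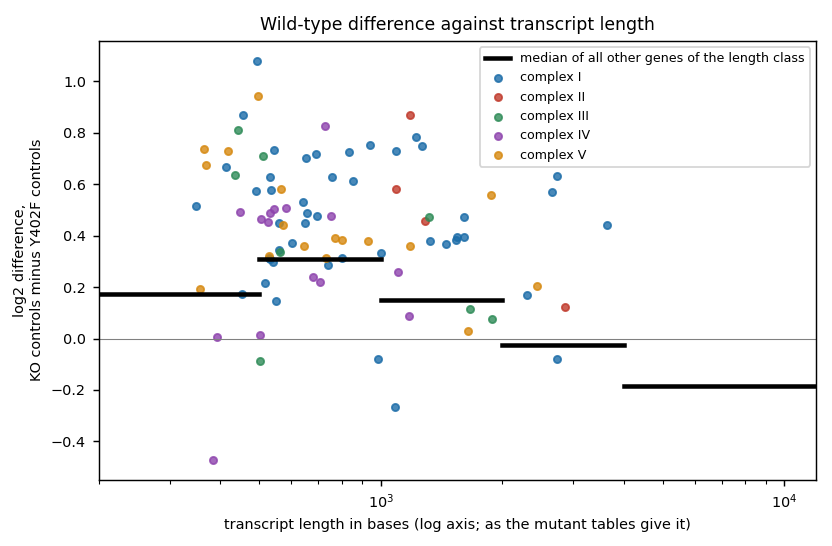
Log2 difference of KO controls minus Y402F controls against transcript length on a log axis, with a point per member coloured by complex; black lines give the median of all other tested genes in 5 length classes. The lines run from 0.31 at 500 to 1000 bases to -0.19 above 4000 bases, and 73 of the 90 points lie above the line of their class.

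Short cytosolic ribosomal protein genes and markers of several cell types moved in the same comparison, where 4.82% of all genes were called higher and 3.16% lower. Of 23 ribosomal genes tested, 11 were higher and 0 lower, with a median log2 difference of 0.55. Of 6 oligodendrocyte markers 2 were higher, with a summed level of 4338 and 4460 scaled FPKM in KO controls, against 2792 and 2820 in Y402F controls; Mbp, the myelin basic protein gene, was at 3487 and 3615, against 2110 and 2119. Of 6 astrocyte markers 2 were higher, Aldoc and Gfap, and 3 were above 0, with a median of -0.02. Their sums were 1889 and 1969 in KO controls, against 1416 and 1380 in Y402F controls, and without Aldoc they were 474 and 501 in KO controls, against 472 and 462 in Y402F controls. Of 6 microglial markers 2 were higher, of 5 blood genes 4 were higher, and of 6 choroid plexus markers 4 were lower. Of 10 neuronal markers 1 was lower, Prox1 of dentate granule cells, with a list sum of 2912 and 2987 in KO controls, against 3020 and 2983 in Y402F controls. Of 8 endothelial and pericyte markers none was called by limma at an adjusted p under 0.05 and 1 had an unadjusted p below that. The part of these cell types and of length in the members' difference was not tested. In whole tissue, fewer cells of a type and less RNA per cell cannot be told apart.

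Promoters of called members are shown because these genes moved together and because nuclear respiratory genes are known targets of the factors NRF1, GABPA (an ETS factor) and YY1. RefSeq sequences on GRCm38.p6, 250 bases before to 50 after a start, were matched by Entrez identifier for 76 of the 92 members in the mutant tables. For each complex the member with the largest called difference that held a searched motif, outside the assembly factors, is given 5′ to 3′ on the gene's strand with motifs in capitals; no called member of complex II held one. The promoters lie at chr2:90904672-90904971 (Ndufs3), chr10:80406772-80407071 (Uqcr11), chr19:7217567-7217866 (Cox8a) and chr5:145191492-145191791 (Atp5j2), all on the minus strand.
Ndufs3: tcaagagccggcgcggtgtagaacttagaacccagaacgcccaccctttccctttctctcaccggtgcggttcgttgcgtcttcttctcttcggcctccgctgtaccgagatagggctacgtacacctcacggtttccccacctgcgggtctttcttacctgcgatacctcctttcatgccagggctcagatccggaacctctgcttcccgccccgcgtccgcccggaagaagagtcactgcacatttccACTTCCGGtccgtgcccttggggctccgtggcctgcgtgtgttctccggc
Uqcr11: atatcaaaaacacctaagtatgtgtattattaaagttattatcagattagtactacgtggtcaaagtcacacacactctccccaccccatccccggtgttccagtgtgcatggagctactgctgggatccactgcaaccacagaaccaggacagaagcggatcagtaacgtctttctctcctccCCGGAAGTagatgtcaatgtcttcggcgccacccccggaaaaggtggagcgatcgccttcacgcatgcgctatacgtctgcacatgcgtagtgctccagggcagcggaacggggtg
Cox8a: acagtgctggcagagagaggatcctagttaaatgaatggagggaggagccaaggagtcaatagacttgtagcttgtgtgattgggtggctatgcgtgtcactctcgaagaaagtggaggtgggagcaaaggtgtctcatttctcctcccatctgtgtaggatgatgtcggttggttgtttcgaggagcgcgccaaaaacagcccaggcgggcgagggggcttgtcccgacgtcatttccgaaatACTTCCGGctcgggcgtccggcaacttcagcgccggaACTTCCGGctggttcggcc
Atp5j2: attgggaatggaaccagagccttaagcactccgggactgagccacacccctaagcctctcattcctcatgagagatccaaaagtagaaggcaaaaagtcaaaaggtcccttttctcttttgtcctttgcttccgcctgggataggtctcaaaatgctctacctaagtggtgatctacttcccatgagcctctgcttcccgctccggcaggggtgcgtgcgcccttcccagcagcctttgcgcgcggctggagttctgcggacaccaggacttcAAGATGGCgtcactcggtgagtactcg

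The motifs searched on both strands were the palindromic NRF1 motif, CCGGAAGT for ETS factors and AAGATGGC for YY1, and no motif contains another. Ndufs3, Uqcr11 and Cox8a held the ETS letters, Cox8a at 2 places on the opposite strand, and Atp5j2 held the YY1 letters just inside the transcript. Of the 76 matched members, 7 (9.21%) held the NRF1 letters, 5 (6.58%) the ETS letters and 11 (14.5%) the YY1 letters. Over the 17492 protein-coding genes of the table the shares were 1.47%, 5.69% and 3.57%. Of 36 matched members called higher in KO controls 13 held at least 1 of the motifs, and of 39 tested and not called 10 did. A match says only that the letters occur in this window.

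The 13 protein-coding genes of the mitochondrial genome, were analysed in the control tables, and 10 of the 13 had a log2 difference above 0 between KO controls and Y402F controls. Limma within the control tables called 2 higher and 1 lower in KO controls, against 2.53% of 16552 genes called higher and 0.816% called lower (3.34% in either direction, and 26.9% at an unadjusted p under 0.05). Their median log2 difference was 0.08, and the groups did not overlap, in either direction, for 12 of 13, against 58.8% of all genes in those tables. mt-Nd3, a membrane subunit of complex I, was at 5194 and 5041 scaled FPKM in KO controls, against 2869 and 3001 in Y402F controls, a log2 difference of 0.80 (limma SE 0.04, adjusted p = 0.0366). mt-Nd2, another membrane subunit, was at 8681 and 8587 in KO controls, against 6646 and 6776 in Y402F controls, a log2 difference of 0.36 (limma SE 0.03, adjusted p = 0.0394). mt-Co1, which holds the oxygen-binding site of complex IV, was lower in KO controls, at 17690 and 17340, against 24950 and 25590 in Y402F controls, a log2 difference of -0.53 (limma SE 0.04, adjusted p = 0.0366).

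The other mitochondrial genes were not called. mt-Cytb, the mitochondrial subunit of complex III, was at 8905 and 8852 scaled FPKM in KO controls, against 10550 and 10670 in Y402F controls, a log2 difference of -0.26 (limma SE 0.03, adjusted p = 0.0508). mt-Nd1 had a log2 difference of -0.18, mt-Nd4 0.21 and mt-Nd5 0.10. mt-Co2, mt-Co3, mt-Atp6, mt-Atp8, mt-Nd4l and mt-Nd6 lay between 0.02 and 0.09. Genes that share bases (mt-Atp8 with mt-Atp6, mt-Nd4l with mt-Nd4 and mt-Nd6 with mt-Nd5) are uncertain, because the sources used here do not say whether reads were counted by strand. FPKM of mt-Atp8, with 204 bases, was at or above 158200 scaled in every control library, and a value per length is unstable for so short a gene. No mitochondrial gene was called with a replicate block, a fit that called only 0.0423% of all genes. Fits with 1 control library left out leave 1 library in a group and cannot decide whether mitochondrial genes differ. The 13 genes took 8.76 and 8.47% of all FPKM in KO controls, against 10.3 and 10.3% in Y402F controls. These shares do not measure the amount of mitochondrial RNA. The unstable mt-Atp8 had the largest FPKM of the 13, and the divisor differed between the groups. FPKM of all genes summed to 3253576 and 3267243 in KO controls, against 2605018 and 2692791 in Y402F controls.

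**Figure D4:**
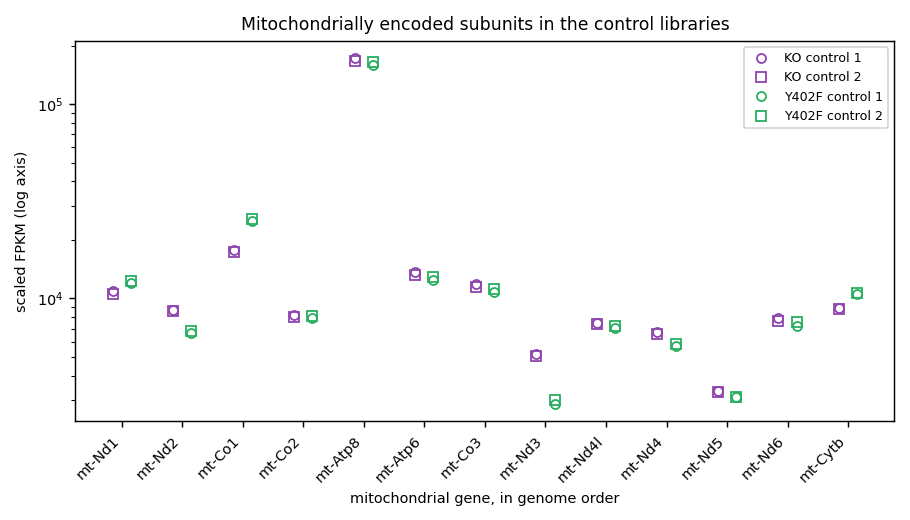
Scaled FPKM on a log axis of the 13 mitochondrial protein-coding genes in genome order, with a point per control library (2 a group). mt-Nd3 lies higher in KO controls and mt-Co1 lower, and the remaining genes differ by less than 0.4 on the log2 scale.

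Against their own controls, members were mostly lower in both mutants, but each such comparison sets 1 kind of table against the other, and genotype and processing cannot be told apart in it. In KO against KO controls limma called 60 of 90 members lower and 4 higher, against 20.9% of all genes called lower and 16.6% higher (37.5% in either direction, and 47.2% at an unadjusted p under 0.05). The median log2 difference was -0.63 over the members and 0.00 (0.00051) over all genes. In Y402F against Y402F controls 35 members were called lower and 10 higher, against 19.3% and 13% of all genes (32.3% in either direction, and 43.6% at an unadjusted p under 0.05), with medians of -0.30 over the members and 0.00 (0.00022) over all genes. By complex, the lower calls in KO were 34 of 46 in I, 1 of 4 in II, 6 of 8 in III, 8 of 15 in IV and 11 of 17 in V, and in Y402F 19, 1, 3, 7 and 5 in the same order. In all, 34 members were lower in both lines and 4 higher in both, and 0 were called in opposite directions. In KO the members' medians were -1.09 below 500 bases, -0.55 from 500 to 1000, -0.69 from 1000 to 2000 and -0.73 from 2000 to 4000. Other genes of these classes had -0.29, -0.37, -0.15 and 0.03. In Y402F the members had -0.50, -0.12, -0.39 and -0.58, and the other genes 0, -0.13, -0.03 and 0.03. The class from 500 to 1000 bases holds 46 of the 90 members. Single libraries moved the Y402F count: without Y402F replicate 1 there were 22 members lower and 10 higher, without Y402F replicate 2 41 lower and 5 higher, and without either Y402F control 25 to 27 lower and 6 higher. Of all genes, 13.1% were called lower and 8.73% higher without Y402F replicate 1, 13.7% and 8.73% without Y402F replicate 2, and 15.2 to 15.4% and 7.24 to 7.79% without a Y402F control.

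The largest falls were in single genes. Cox7b, a small X-linked subunit of complex IV, was at 107 and 94.2 scaled FPKM in KO, against 1439 and 1428 in KO controls. It was at 94.7 and 110 in Y402F, against 1443 and 1265 in Y402F controls. The log2 differences were -3.83 (limma SE 0.10, adjusted p = 2.23e-07) in KO and -3.71 (limma SE 0.10, adjusted p = 3.49e-07) in Y402F, and the mutants held 7.0% and 7.57% of the level of their controls. Ndufa11, a supernumerary subunit of complex I, was at 24.9 and 28.3 in KO, against 195 and 204 in KO controls, and at 24.7 and 28.7 in Y402F, against 135 and 132 in Y402F controls. Its differences were -2.86 (limma SE 0.11, adjusted p = 8.84e-07) and -2.29 (limma SE 0.11, adjusted p = 2.78e-06). Ndufc1 followed with -2.08 in KO and -1.77 in Y402F (SE 0.15 each). The mutant tables give Cox7b a transcript of 1176 bases and Ndufa11 one of 2661, and these lengths enter FPKM.

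Lesser falls ran through the other complexes. In complex III Uqcrq was at 183 and 186 scaled FPKM in KO, against 532 and 549 in KO controls, and at 147 and 183 in Y402F, against 322 and 338 in Y402F controls, with differences of -1.55 and -1.003 (SE 0.10 each). Uqcr10 fell by 1.10 in KO and 0.48 in Y402F on the log2 scale, and Uqcr11 by 0.79 in KO. In complex IV Cox6b1 held 37.5% of its control level in KO and 46.7% in Y402F. In complex V Atp5b held 43.2% in KO and 61.2% in Y402F, Atp5k had differences of -1.17 and -1.002, and Atp5mpl of -1.37 and -0.86. Atp5pb had -1.02 in KO and -0.93 in Y402F. In complex II only Sdhc was called by limma, with -1.13 in KO and -0.39 in Y402F (SE 0.10 each), and Sdha was at 136 and 136 in KO, against 131 and 126 in KO controls. The low isoforms Cox7a1 in KO (-1.28, SE 0.33) and Cox6b2 in Y402F (-1.42, SE 0.42) were also called lower, at under 9 scaled FPKM in every library.

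The 4 members called higher in both mutants than in their controls have near-identical pseudogene copies with FPKM of their own in the control tables. Ndufb4 was at 152 and 206 scaled FPKM in KO, against 59.6 and 66.3 in KO controls, and at 167 and 218 in Y402F, against 53.6 and 57.8 in Y402F controls. Its differences were 1.48 (limma SE 0.17, adjusted p = 0.000303) and 1.76 (limma SE 0.17, adjusted p = 0.000127), and its copies, led by Gm16056, held 92.2% of their summed FPKM with Ndufb4 as a mean over the control libraries. Atp5g2, 1 of the 3 genes for the c ring of the ATP synthase, had differences of 1.04 and 1.38 (SE 0.10 each), with copies at 69.8%. Ndufb3 (0.30 and 0.80; copies 43.0%) and Uqcrb (0.41 and 0.53; copies 59.7%) completed the members called higher in both lines. Of the 10 called higher in Y402F, 9 have such a copy and Uqcrfs1 (0.31) has none. Copies are short, which raises their FPKM, so these are shares of FPKM and not of reads.

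Copies did not go with a higher mutant level in every member. Atp5j, the coupling factor 6 of the stalk, has a copy at 97.5% of summed FPKM and was lower in KO, with -0.73 (SE 0.08), and at -0.11 (SE 0.08) in Y402F. Of the 66 members with no copy at 1 FPKM or more, 50 were called lower and 0 higher in KO, with a median of -0.73, and 30 lower and 1 higher in Y402F, with a median of -0.39. Of the 24 with such a copy, 10 were lower and 4 higher in KO, with a median of -0.21, and 5 lower and 9 higher in Y402F, with a median of 0.13. Between the wild-type pairs the medians were 0.47 without and 0.35 with a copy. Values of members with copies are uncertain, because the authors' counting could divide reads between the gene and its copies.

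In the c ring trio the shares of Atp5g2 and Atp5g3 split by table, while those of Atp5g1 overlapped between the kinds of table. Atp5g1 also has a copy, at 57.2% of summed FPKM as a mean over the control libraries. Atp5g1 held 39.1 and 39.4% of the FPKM of the trio in KO, 37.6 and 36.1% in Y402F, 35.7 and 37.4% in KO controls and 36.8 and 34.4% in Y402F controls. Atp5g2 held 33.3 and 31.8% in KO, 33.9 and 32.5% in Y402F, 18.5 and 17.1% in KO controls and 16.5 and 18.8% in Y402F controls. Atp5g3, which has no copy found, held 27.6 and 28.9% in KO, 28.5 and 31.4% in Y402F, 45.7 and 45.5% in KO controls and 46.7 and 46.8% in Y402F controls. The genes encode the same mature protein with different import sequences, and no share differed between KO and Y402F, or between the control groups, by as much as it differed between the kinds of table for Atp5g2 and Atp5g3.

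**Figure D5:**
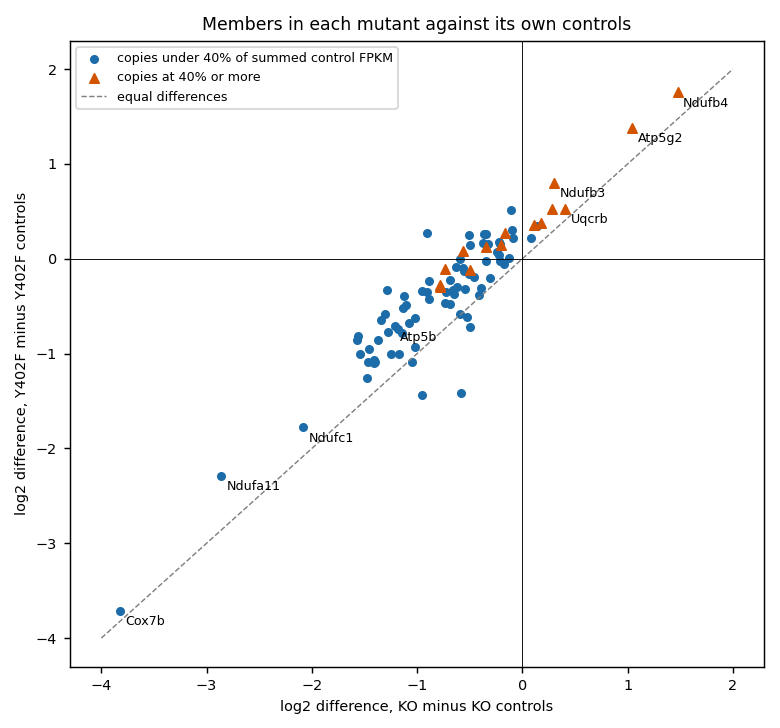
Log2 difference of KO minus KO controls on the horizontal axis against Y402F minus Y402F controls on the vertical axis, with a point per member; triangles have pseudogene copies at 40% or more of summed control FPKM. Cox7b, Ndufa11 and Ndufc1 are lowest on both axes, Ndufb4 and Atp5g2 highest, and 85 of 90 points lie above the dashed line of equal differences.

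The difference of the 2 mutant effects is signed, and lies below 0 where the KO effect was the lower of the 2. It does not measure distance from the controls: Ndufb4, at 1.48 in KO and 1.76 in Y402F, is below 0 too. No member was called by limma, against 4 of 12963 genes in all, or 0.0309%; at an unadjusted p under 0.05 there were 41 members of 90, against 13% of all genes. The median was -0.38 over the members and 0.02 over all genes, and 85 of 90 members were below 0. By complex the medians were -0.39, -0.42, -0.37, -0.31 and -0.34 for I to V. The members with the smallest p were Atp5j (-0.62, SE 0.11), Ndufa4 (-0.61, SE 0.11), Sdhc (-0.74, SE 0.14), Cox6c (-0.49, SE 0.11) and Uqcr11 (-0.51, SE 0.12), with limma adjusted p of 0.136 for Atp5j, Ndufa4 and Sdhc and 0.156 for Cox6c and Uqcr11.

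This difference contains the one between the wild-type pairs with its sign turned. Ndufa4 was at 355 and 345 scaled FPKM in KO and 342 and 381 in Y402F, and at 701 and 658 in KO controls and 457 and 456 in Y402F controls, so that the mutant groups overlapped and the control groups did not. Sdhc was at 71.9 and 78.3 in KO and 63.3 and 74.1 in Y402F, and at 168 and 162 in KO controls and 90.6 and 89.2 in Y402F controls. With the trend over transcript length removed the median of the members was -0.11. A term for the sex pattern of each library gave 10 members called lower and a median of -0.53, against 135 genes called in all. Sex pattern followed line in the controls, so only the mutant libraries set this term. In the mutants it followed replicate number, and the term therefore cannot separate sex from line or from replicate.

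Neighbouring mitochondrial gene groups were counted in the same way in the wild-type comparison, and differences between groups were not tested. Of all genes, 4.82% were called higher there and 3.16% lower. Of 5 genes for electron carriers all 5 were above 0 and 2 were called higher in KO controls, Cyc1, the cytochrome c1 of complex III, with a log2 difference of 0.76 (limma SE 0.09, adjusted p = 0.0111) and Etfb with 0.89 (limma SE 0.22, adjusted p = 0.0465). Of 13 genes of the tricarboxylic acid cycle 0 were higher and 1 lower, Dlst, with -0.61 (limma SE 0.15, adjusted p = 0.0441) and a median of 0.06 over the list. Of 19 genes of mitochondrial membranes and import 5 were higher, among them Tomm22 (0.60) and Slc25a3 (0.56), with a median of 0.11. Of 15 regulators of mitochondrial biogenesis, 1 was higher, Polg, the mitochondrial DNA polymerase (1.09, SE 0.20), and 1 lower, Yy1 (-0.56, SE 0.13), with a median of -0.22.

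Assembly factors were counted by complex in KO controls against Y402F controls, where 4.82% of all genes were called higher. Of 15 complex I factors, a list that contains the 8 Ndufaf genes, 3 were higher. All 3 are Ndufaf genes, already counted among the members. For complex II 0 of 4 were higher, and for complex III 1 of 6 (Uqcc2, 1.03, SE 0.16). For complex IV 5 of 24 were higher, led by Surf1 (0.65) and Higd1a (0.64), and for complex V 0 of 4. None was lower in any list. The medians were 0.17, 0.20, 0.19, 0.32 and 0.19. At an unadjusted p under 0.05 limma gave 5 of 15 for complex I, 1 of 4 for II and 1 of 6 for III. It gave 10 of 24 for IV and 0 of 4 for V, against 27.1% of all genes. In KO against Y402F no gene of these lists was called by edgeR, and at an unadjusted p under 0.05 there was 1 of 24 ribosomal genes and 0 of the assembly, carrier, cycle, biogenesis and membrane genes.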

How the data were processed

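Expected counts, FPKM and transcript lengths of 4 mutant libraries, and FPKM with confidence bounds of 4 control libraries, were read as deposited. Per the file headers, the authors gave an expected count per Entrez gene in the mutants and an FPKM value per gene in all 8 libraries; according to the submitters' processing notes, all 8 samples list mm9, Bowtie 1 and HISAT, and the 4 controls also list Cufflinks. Control positions nevertheless share a start or end with GENCODE M21 (GRCm38) for 99.8% of genes. Which program made the expected counts was not stated in those notes. Of expected counts above 0, 81.33% were whole within 0.005.

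The 8-library table joins 17691 of the 18022 mutant genes to a control gene, 17596 of them by symbol, after 94 control entries with a repeated identifier were dropped. FPKM were scaled by median of ratios over 11449 genes. KO against Y402F used edgeR 4.0.16 (quasi-likelihood, TMM, expected counts rounded to whole numbers, at least 10 in at least 2 libraries; SE computed as the absolute log2 difference over the root of F). Other comparisons used limma 3.58.1 on log2(scaled FPKM + 1), its prior variance following intensity, for genes at a mean of 1 FPKM or more, with all 8 libraries, or with the 4 control libraries for mt- genes. Such differences understate changes of low genes. P-values were adjusted by Benjamini-Hochberg over all genes tested, and an adjusted p under 0.05 is a call. DESeq2 1.42.0 was an alternative. The edgeR and limma steps were tested on simulated data. Pseudogene copies were found with blastn 2.17.0 (at least 95% identity over 80% of the copy). Scripts ran in R 4.3.3 and in Python 3.11.15 with numpy 2.4.6 and pandas 2.3.3; figures came from matplotlib 3.10.9.

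Named members are core subunits, isoform pairs, the highest and lowest member of each complex, mt- genes, members in 1 kind of table, and up to 3 called members per complex and comparison (if none, the one with the smallest p). Members and lists were chosen with earlier results of these data known. Replicate numbers are not taken as pairs: no label ties them, and same-numbered deviations correlated at 0.20 between KO and Y402F, whose replicates also share a sex pattern, and at -0.03 to 0.05 otherwise. Counts include 1 member that is not reported by name here.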

Additional observations from a re-analysis of the deposited data

Results flagged for a closer look

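For 12 members, both KO libraries lay below both KO controls while both Y402F libraries lay above both Y402F controls. That is 13.3% of the 90 members tested, against 2.04% of all genes; the opposite pattern was held by 0 members and by 1.69% of all genes. The difference of effects, KO minus Y402F on the log2 scale, was -0.76 for Atp5j2, -0.65 for Ndufs7, -0.63 for Ndufb7, -0.62 for Ndufs3, -0.60 for Ndufa13, -0.54 for Ndufaf1, -0.47 for Ndufs5, -0.43 for Cox7c, -0.41 for Uqcrfs1, -0.36 for Sdhb, -0.36 for Atp5l and -0.30 for Ndufa9. Limma's test of that difference called none of them. Cox7c, Atp5l, Ndufs3 and Ndufs5 have pseudogene copies, and table kind and genotype cannot be told apart within either effect. The pattern also contains the difference between the wild-type pairs, where 78 of the 90 members were higher in both KO control libraries. Ndufs7, for example, had a mean of 76.1 scaled FPKM in KO and 76.9 in Y402F, against 108 in KO controls and 69.4 in Y402F controls. The part of the control difference in this pattern was not tested.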

How the results depend on the processing

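Of the wild-type comparison, the 42 members called became 22 without a filter, 21 with quantile normalization, 4 without the intensity trend, 7 with the length trend removed, 27 with the 4 control libraries only and 10 to 11 with a library left out; its median of 0.45 became 0.28 with quantile normalization, 0.58 with the sex term and 0.11 with the length trend removed. All genes called in it went from 1034 to 514 without a filter, 165 without the intensity trend, 537 with the length trend removed, 325 with the control libraries only and 169 to 271 with a library left out. The median of KO against Y402F (0.06) ranged from -0.04 (-0.041, without Y402F replicate 1) to 0.15 with a library left out. The median of KO against KO controls (-0.63) became -0.77 without scaling, -0.39 with quantile normalization, -0.22 with the length trend removed and -0.73 for members with no copy, an alternative added after seeing the data. That of Y402F against Y402F controls (-0.30) became -0.44, -0.18, -0.18 and -0.39 in the same order, and -0.38 to -0.18 with a library left out. The difference of effects had 10 members called with the sex term; its median (-0.38) became -0.26 with quantile normalization, -0.53 with the sex term, -0.11 with the length trend removed and -0.48 to -0.27 with a library left out. No mt- gene was called with the replicate block, which called only 7 of 16552 genes in the control tables. Fits of the control tables with a library left out leave 1 library in a group and cannot decide whether mt- genes differ. The sex term could not separate sex from line, because sex pattern followed line in the controls. The cause was not tested in these cases.

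With the replicate block the wild-type count of members was 42, KO against Y402F and the difference of effects had 0 members, and KO against Y402F had 4 genes called in all (18 to 40 with a library left out, 2 with DESeq2 and with RLE size factors, 5 with limma); the block changed no count of members by over 1.5 times. Members called in the reported or the alternative fit turned sign in 16 cases. With quantile normalization Atp5c1 (0.051) and Uqcrc2 (0.0039) did so in KO against KO controls. With the length trend removed the same comparison gave Atp5c1 0.029, Atp5j2 0.029, Atp5md 0.046, Cox5a 0.012, Cox6a1 0.30, Cox7c 0.41, Ndufa8 0.28, Ndufb7 0.15, Ndufs5 0.16 and Ndufs6 0.35 (Cox6a1, Cox7c, Ndufa8 and Ndufs6 were called with that trend removed but not before), and the wild-type comparison gave Cox7c -0.0021, Ndufa12 -0.085, Ndufa3 -0.064 and Ndufs6 -0.13.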
